A study of Homo sapiens with 6 samples.

Results

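Heparan sulfate and chondroitin sulfate are long sulfated sugar chains carried by proteoglycans, and 40 genes that make their core proteins or build, sulfate and trim the chains were followed here. They were chosen by name, with earlier results of these data known, and 36 of the 40 are rows of the expression table of 14168 genes. CHSY3, CSGALNACT1, GPC3 and GPC4 were not analysed here. RNA-seq of polyadenylated RNA covered 6 libraries of wild-type BJ, an established fibroblast line from human foreskin. A control siRNA had been given to 3 of them and an siRNA against agrin to the other 3. The sources used here give neither siRNA's sequence, nor its dose, nor when cells were collected. They also do not say whether replicates were separate cultures, so p-values measure only the spread between these samples, possibly technical. Agrin is itself a heparan sulfate proteoglycan, so the comparison asks what the other genes of this machinery did when the transcript of one core protein was depleted.

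Both kinds of chain start in the same way. A short linker of xylose, galactose, galactose and glucuronic acid is built on a serine of the core protein, and the next sugar decides the chain: N-acetylglucosamine starts heparan sulfate and N-acetylgalactosamine starts chondroitin sulfate. Enzymes of the Golgi then lengthen the chain, epimerize some of its glucuronic acid and add sulfate at set positions, and the pattern of sulfates governs which growth factors, morphogens and matrix proteins a chain binds. In fibroblasts the syndecans, which span the membrane, and the glypicans, which are held by a lipid anchor, present heparan sulfate at the cell surface.

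The siRNA's target, AGRN, had control values of 744, 804 and 790 scaled CPM, the deposited unit, in which reads are divided by a scaled library size. Its agrin siRNA values were 290, 297 and 265. Values are given here in the order of replicates 1, 2 and 3. The groups did not overlap, and the log2 fold change was -1.46 ± 0.05 (SE, limma, adjusted p = 3.19e-06). Protein and sugar chains were not measured. Reads on listed genes numbered 42736368 to 48246613 per library. All 6 fibroblast markers were expressed, with summed levels of 41589 to 44646 in control and 39231 to 40815 in agrin siRNA libraries, and 3 of them fell (COL1A1, PDGFRB and LUM). The epithelial markers EPCAM, CDH1, KRT5 and KRT14 were each at 0.808 or less in every library. KRT8, the fifth epithelial marker, was at 57.4 ± 0.335 in the controls and fell to 49.7 ± 2.66 (SD, n = 3; -0.21, limma adjusted p = 0.0102). Of 2 endothelial markers in the table, CDH5 was at 0 in all 6 libraries and TEK at 7.0 to 9.31. The only immune marker in the table, the lysosomal protein CD68, was higher, from 131 ± 9.09 to 261 ± 4.01 (SD, n = 3), but 81.7% of its exon bases are shared with overlapping units on its strand, so its reads are uncertain. The part of these markers in the results below was not tested. In bulk RNA, fewer cells of a type and less RNA per cell cannot be told apart.

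Of the 36 members, 35 passed the filter on low values (at least 1 scaled CPM in at least 3 libraries). HS6ST2, a heparan sulfate 6-O-sulfotransferase, had 0 reads in all 6 libraries, where 3 reads would be 0.0681 to 0.0761 scaled CPM. At an adjusted p under 0.05 (limma across 13206 genes), 6 members rose and 5 fell with the agrin siRNA. That is 31.4% of the members, beside 28.7% of all genes tested, 15.2% being higher and 13.5% lower. The groups did not overlap for 16 of the 35 members, or 45.7%, beside 45.2% of all genes tested. The median log2 fold change was 0.01 over the members and -0.000115 over all genes, and the median size of change regardless of sign was 0.11 in both. With all 6 libraries, the members thus changed about as often and as much as other genes. Without agrin siRNA replicate 2, 11 members were higher and 8 lower, 54.3% beside 38.9% of all genes in that fit. Without each other library in turn, 28.6 to 31.4% of the members were called beside 15.7 to 28.7% of all genes.

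Of the 11 called members, 9 belong to heparan sulfate chains, 1 to chondroitin sulfate and 1 to the shared linker. Heparan sulfate genes were also most of the members tested: 14 enzymes and 6 cores, beside 10 chondroitin and dermatan sulfate enzymes and 5 linker genes. The chain polymerases EXT1 and EXT2 rose and the chain initiator EXTL3 fell. The sulfotransferases HS6ST1 and HS3ST3A1 rose and both extracellular sulfatases, SULF1 and SULF2, fell. The cores SDC2 and GPC6 fell. Among 14 heparan sulfate enzymes tested, 4 rose, 3 fell and 7 did not pass. Among 10 chondroitin and dermatan sulfate enzymes tested, 1 rose, 0 fell and 9 did not pass. These are 50% and 10%, beside the 28.7% of all genes. This contrast rests on agrin siRNA replicate 2: without it, 8 of the 14 and 5 of the 10 were called, 57.1% and 50% beside 38.9% of all genes. The contrast also depends on which enzymes were listed as members. Among the further enzymes described below, 3 of 3 of chondroitin and dermatan sulfate were called, and 0 of 2 of the linker and heparan sulfate. The difference between the counts was not tested. The changes were moderate: no member changed by as much as 2-fold, and the largest, in SULF2, was a fold of 0.668.

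**Figure D1:**
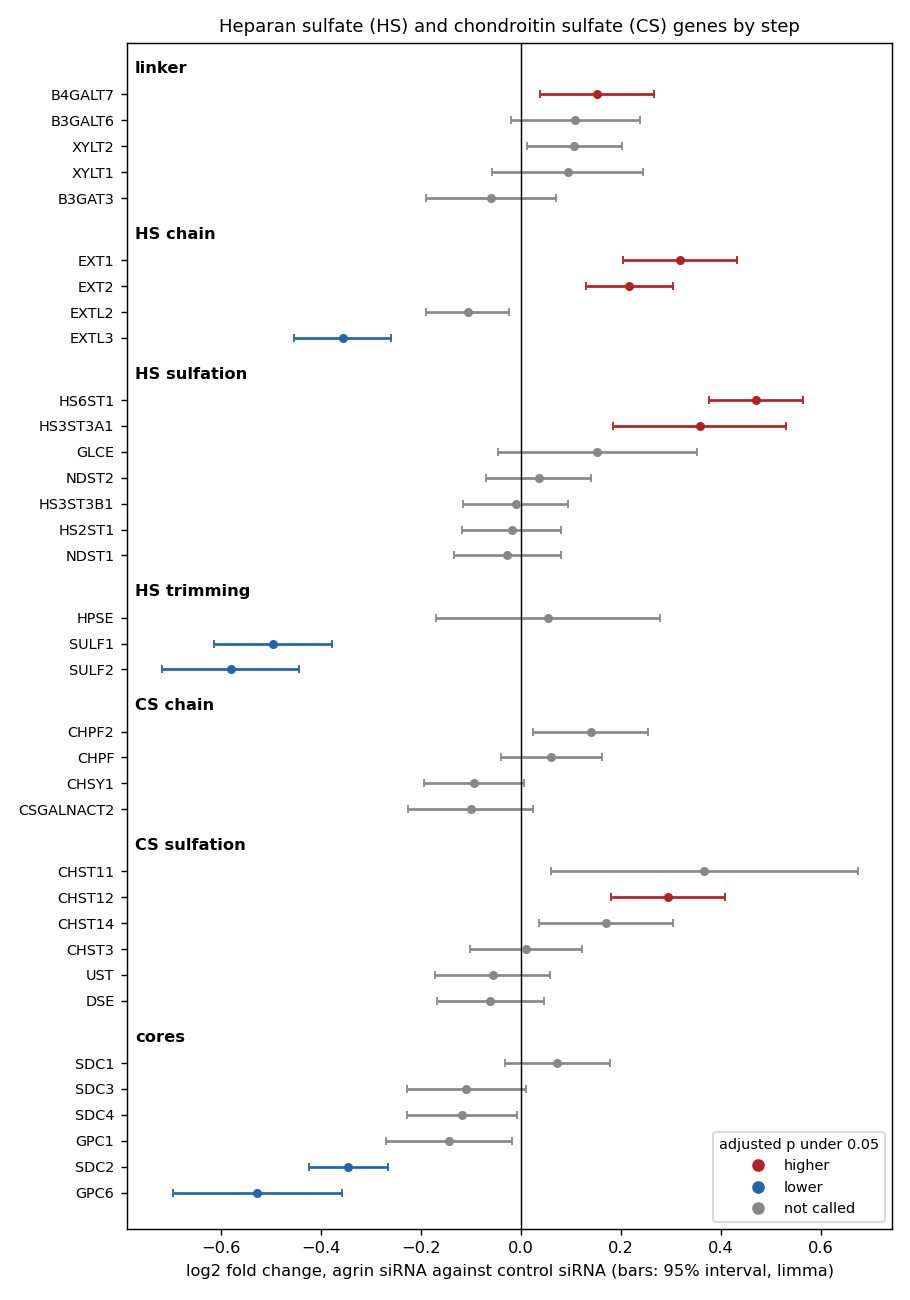
Log2 fold change of the 35 members tested, agrin siRNA against control siRNA, grouped by step of the pathway (HS, heparan sulfate; CS, chondroitin sulfate); points are limma estimates, bars their 95% intervals, and colour the call at an adjusted p under 0.05. The 5 lower members run from SULF2 at -0.58 to SDC2 at -0.35, and the 6 higher ones from B4GALT7 at 0.15 to HS6ST1 at 0.47.

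Promoter sequences are shown for the 3 members with the largest called changes that may be printed, 1 that rose (HS6ST1) and 2 that fell (SULF2 and GPC6). They were picked after their values were seen. Each is the 250 bases before the first start that RefSeq lists for the gene on GRCh38.p14, written 5′ to 3′ on the gene's strand. Capitals mark the GC box GGGCGG and the TATA box TATAAA, each searched on both strands; the E-box CACGTG, also searched, had no match in these windows. The windows are chr2:128318869-128319118 on the minus strand for HS6ST1, chr20:47786628-47786877 on the minus strand for SULF2, which has 4 listed starts, and chr13:93226557-93226806 on the plus strand for GPC6.

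HS6ST1: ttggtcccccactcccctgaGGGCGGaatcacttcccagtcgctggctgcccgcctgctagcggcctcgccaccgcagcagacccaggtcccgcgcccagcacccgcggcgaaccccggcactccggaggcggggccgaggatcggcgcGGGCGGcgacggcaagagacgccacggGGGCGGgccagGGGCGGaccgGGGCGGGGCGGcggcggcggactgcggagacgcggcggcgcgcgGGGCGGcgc

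SULF2: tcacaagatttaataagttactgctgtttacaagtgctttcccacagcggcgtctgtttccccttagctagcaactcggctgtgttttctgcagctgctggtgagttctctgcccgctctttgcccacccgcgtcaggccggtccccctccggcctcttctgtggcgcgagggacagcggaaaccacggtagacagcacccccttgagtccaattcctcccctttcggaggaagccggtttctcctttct

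GPC6: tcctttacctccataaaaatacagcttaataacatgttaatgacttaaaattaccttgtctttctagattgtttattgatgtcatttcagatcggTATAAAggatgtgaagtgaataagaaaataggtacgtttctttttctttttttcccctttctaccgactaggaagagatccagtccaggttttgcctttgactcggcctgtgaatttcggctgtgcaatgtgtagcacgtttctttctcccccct

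The HS6ST1 window was 80.4% G and C and held 7 GC boxes, 2 of them overlapping, and no TATA box. The SULF2 window was 56.8% G and C and held none of the 3 motifs. Of the 4 starts listed for SULF2, however, 2 had a GC box in their window and 1 had an E-box. The GPC6 window was 37.6% G and C and held 1 TATA box. The median over 15035 starts of genes in the expression table was 64.4%. A GC box lay in 63.1% of those windows and in 80.9% of the 47 windows of the 32 members found in both the expression and the RefSeq table, so HS6ST1 had the common feature and SULF2 and GPC6, at these starts, did not. A TATA box lay in 5.87% of those windows and in 6.38% of the members' windows. An E-box lay in 8.10% and 12.8%. A match in this window is a description of letters, and whether any factor binds there was not measured.

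The 5 linker genes moved about as much as other genes, with a median size of change of 0.11 in log2 for both. Of the 5, 1 passed, or 20%, beside 28.7% of all genes. B4GALT7, which adds the first galactose (chromosome 5, 177600100 to 177610347, plus strand, GRCh38), stood at 26.1, 28.7 and 28.3 scaled CPM in the controls and at 31.2, 30.9 and 30.4 in the agrin siRNA libraries. The groups did not overlap, and the log2 fold change was 0.15 ± 0.05 (SE, limma, adjusted p = 0.0497). This call is at the edge of the threshold: it held without agrin siRNA replicate 2 and was lost without each other library in turn, with log2 fold changes of 0.11 to 0.18 over those 6 fits and an adjusted p of up to 0.207. The other 4 linker genes did not pass. XYLT1 and XYLT2, the xylosyltransferases that start every chain, were at 43.8 ± 1.33 and 43.2 ± 0.938 in the controls and at 46.8 ± 4.50 and 46.6 ± 1.16 in the agrin siRNA libraries (SD, n = 3). Without agrin siRNA replicate 1, XYLT1 passed (0.17, limma adjusted p = 0.0283). B3GALT6, which adds the second galactose, and B3GAT3, which adds the glucuronic acid, had log2 fold changes of 0.11 (95% interval -0.02 to 0.24) and -0.06 (-0.19 to 0.07).

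The heparan sulfate chain is polymerized by a complex of EXT1 and EXT2, which add N-acetylglucosamine and glucuronic acid in turn, and both transcripts rose. EXT1 (chromosome 8, 117794490 to 118111853, minus strand) stood at 467, 450 and 483 scaled CPM in the controls and at 553, 576 and 619 in the agrin siRNA libraries. Every agrin siRNA library lay above every control, with a log2 fold change of 0.32 ± 0.05 (SE, limma, adjusted p = 0.00181) resting on 17723 to 27263 reads. EXT2 (chromosome 11, 44095549 to 44245429, plus strand) stood at 294, 294 and 312 in the controls and at 345, 349 and 352 in the agrin siRNA libraries. These groups did not overlap either, and the log2 fold change was 0.22 ± 0.04 (SE, limma, adjusted p = 0.00324). Per kilobase of exon the pair was present at nearly equal levels, 56.1 for EXT1 and 56.7 for EXT2 in the controls and 70.0 and 65.9 in the agrin siRNA libraries.

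EXTL3, the transferase that adds the first N-acetylglucosamine to the linker and so commits the chain to heparan sulfate, went the other way. It lies on chromosome 8, 28600469 to 28755599, plus strand. Its level was 160, 156 and 161 scaled CPM in the controls and 127, 117 and 128 in the agrin siRNA libraries. All 3 agrin siRNA libraries were below all controls, the means differing by -22.0% and the log2 fold change being -0.36 ± 0.04 (SE, limma, adjusted p = 0.000416). The level of EXTL3 per kilobase over the summed levels of EXT1 and EXT2 was 0.108, 0.107 and 0.104 in the controls and 0.0728, 0.0657 and 0.0686 in the agrin siRNA libraries. EXTL2, a transferase that can cap a phosphorylated linker, was at 65.7 ± 0.873 and 60.9 ± 0.688 (SD, n = 3), without overlap, and just missed the threshold (-0.11, limma adjusted p = 0.0576). It passed without agrin siRNA replicate 2 (-0.11, adjusted p = 0.0431) and in plain CPM (-0.13, adjusted p = 0.0342).

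Sulfation of heparan sulfate begins with NDST1 and NDST2, which replace the acetyl group of glucosamine by sulfate, and neither passed. NDST1, the more abundant per kilobase, was at 283 ± 4.94 and 278 ± 16.7 scaled CPM (SD, n = 3; log2 fold change -0.03, 95% interval -0.14 to 0.08). NDST2 was at 30.7 ± 0.899 and 31.5 ± 0.868, but 82.9% of its exon bases are shared with the overlapping transcript unit AC022400.6 on its strand, so its reads are uncertain. GLCE, the epimerase that makes iduronic acid, was at 39.8 ± 2.61 and 44.5 ± 6.08; its interval of 0.15 (-0.05 to 0.35) goes with a wide spread, agrin siRNA replicate 3 being at 51.3 and replicate 1 at 39.6. HS2ST1, which sulfates the 2-O position of iduronic acid, had a log2 fold change of -0.02 (-0.12 to 0.08). Over these 4 genes the intervals reached no further than -0.14 and 0.35.

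HS6ST1, which adds sulfate to the 6-O position of glucosamine, rose most among the members that passed. The gene lies on chromosome 2, 128236716 to 128318577, minus strand. It stood at 42.4, 44.6 and 44.0 scaled CPM in the controls and at 59.9, 59.9 and 62.2 in the agrin siRNA libraries. The lowest agrin siRNA library was well above the highest control, and the log2 fold change was 0.47 ± 0.04 (SE, limma, adjusted p = 8.08e-05), a fold of 1.39. Of the 50-base words in its transcripts, 15.1% also occur in the pseudogene HS6ST1P1, so a share of its reads could be placed on either. With HS6ST2 at 0, HS6ST1 was the only heparan sulfate 6-O-sulfotransferase with reads among the members.

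HS3ST3A1 and HS3ST3B1 both add the rare sulfate at the 3-O position of glucosamine, and only the first passed. HS3ST3A1 (chromosome 17, 13495689 to 13601927, minus strand) stood at 10.2, 11.5 and 11.1 scaled CPM in the controls and at 13.3, 15.5 and 13.6 in the agrin siRNA libraries. The groups were apart, and the log2 fold change was 0.36 ± 0.08 (SE, limma, adjusted p = 0.00812) on 402 to 667 reads. HS3ST3B1, at a higher level per kilobase, was at 39.6 ± 0.944 and 39.3 ± 1.62 (SD, n = 3; log2 fold change -0.01, 95% interval -0.12 to 0.09). The difference between these 2 genes was not tested. They share 20.4% of the 50-base words of HS3ST3A1, so reads could be split between them.

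Both extracellular sulfatases fell. SULF1 and SULF2 are secreted enzymes that remove 6-O sulfates from finished heparan sulfate chains, at the cell surface and in the matrix, and so act opposite to HS6ST1. SULF1, the most abundant member per kilobase of exon, stood at 2299, 2184 and 2199 scaled CPM in the controls and at 1633, 1499 and 1606 in the agrin siRNA libraries. Every agrin siRNA library was below every control, and the log2 fold change was -0.50 ± 0.05 (SE, limma, adjusted p = 0.000208) on 64400 to 91023 reads. SULF2 stood at 131, 137 and 121 in the controls and at 92.7, 85.2 and 81.0 in the agrin siRNA libraries. Its groups did not overlap, and the log2 fold change was -0.58 ± 0.06 (SE, limma, adjusted p = 0.000205). SULF1 lies on chromosome 8, 69466624 to 69660915, plus strand, and SULF2 on chromosome 20, 47656348 to 47786616, minus strand.

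Summed per kilobase, the sulfatase transcripts went from 256 ± 6.77 to 181 ± 7.89 scaled CPM per kilobase (SD, n = 3). The level of HS6ST1 as a percentage of that sum was 3.43, 3.77 and 3.73% in the controls and 6.82, 7.42 and 7.26% in the agrin siRNA libraries. The ratio of the 6-O-sulfotransferase to the 6-O-sulfatase transcripts was thus 1.97 times as high in the agrin siRNA group. The groups could not overlap in this ratio, since HS6ST1 rose and both sulfatases fell, each without overlap. Transcript ratios do not measure enzyme activity or sulfate on the chains. For such a ratio, 3 libraries against 3 allow an exact permutation p of 0.1 at the lowest, so none is given. HPSE, heparanase, which cuts the chain itself, was low at 4.13 ± 0.282 and 4.31 ± 0.524 scaled CPM and did not pass (0.05, 95% interval -0.17 to 0.28).

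**Figure D2:**
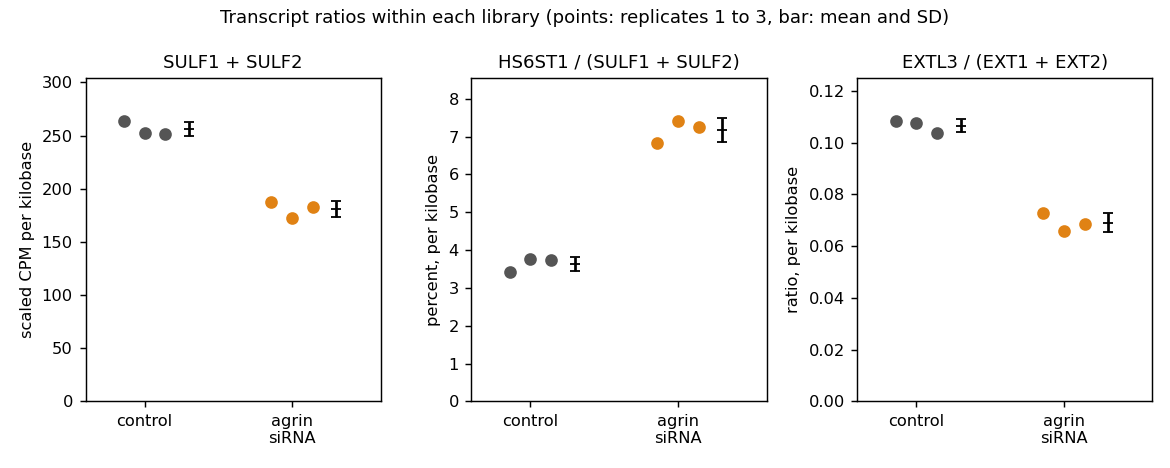
Summed level of the sulfatase transcripts (scaled CPM per kilobase of exon), HS6ST1 as a percentage of that sum, and EXTL3 over the sum of EXT1 and EXT2, in each of the 3 control and 3 agrin siRNA libraries; the horizontal bars with error bars are means and SD. The groups do not overlap in any panel, which follows from the changes of the single genes and is no further result. HS6ST1 is at 3.43 to 3.77% of the sulfatases in controls and 6.82 to 7.42% in agrin siRNA libraries.

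Chondroitin sulfate chains are built by CHSY1, CHPF and CHPF2 after CSGALNACT2 has added the first N-acetylgalactosamine. Of these 4, 0 passed, beside 28.7% of all genes. CHPF and CHPF2 were the most abundant of them per kilobase, at 58.7 and 42.7 in the controls and 61.2 and 47.1 in the agrin siRNA libraries. CHPF2 was at 180 ± 5.24 and 198 ± 12.9 scaled CPM (SD, n = 3) and missed the threshold, with 0.14 in log2 (limma adjusted p = 0.0691); without agrin siRNA replicate 2 it was 0.19 and passed (adjusted p = 0.00322). CHSY1 was at -0.09 (adjusted p = 0.145) and passed without the same library (-0.12, adjusted p = 0.0465). CHPF and CSGALNACT2 were at 0.06 (95% interval -0.04 to 0.16) and -0.10 (-0.23 to 0.02).

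Of the 6 genes that sulfate or epimerize chondroitin and dermatan sulfate, only CHST12 was called, and it rose. That is 16.7%, beside 28.7% of all genes. CHST12, which adds sulfate to the 4-O position of N-acetylgalactosamine (chromosome 7, 2403560 to 2448483, plus strand), stood at 25.0, 23.9 and 26.1 scaled CPM in the controls and at 30.4, 30.1 and 31.6 in the agrin siRNA libraries. The groups were apart, with a log2 fold change of 0.29 ± 0.05 (SE, limma, adjusted p = 0.00264). The other 4-O-sulfotransferases did not pass. CHST11, near the low end at 4.0 ± 0.585 and 5.32 ± 0.958 (SD, n = 3), was at 0.37 in log2 (limma adjusted p = 0.0732), and CHST14, which acts on dermatan sulfate, at 0.17 (adjusted p = 0.0606). Without agrin siRNA replicate 2 both passed, at 0.49 (adjusted p = 0.00795) and 0.22 (adjusted p = 0.00545). CHST3, the 6-O-sulfotransferase of chondroitin, was at 0.01 (95% interval -0.10 to 0.12). DSE, the epimerase that turns chondroitin into dermatan sulfate, and UST, a uronyl 2-O-sulfotransferase, were at -0.06 (-0.17 to 0.05) and -0.06 (-0.17 to 0.06).

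Of the 6 cores tested, SDC2 and GPC6 fell and 0 rose, so 33.3% were called, beside 28.7% of all genes. SDC2, the syndecan typical of mesenchymal cells (chromosome 8, 96493351 to 96611780, plus strand), stood at 151, 153 and 151 scaled CPM in the controls and at 122, 117 and 118 in the agrin siRNA libraries. Both groups were tight and apart, and the log2 fold change was -0.35 ± 0.04 (SE, limma, adjusted p = 0.000169). GPC6, a glypican, lies on chromosome 13, 93226842 to 94407401, plus strand. It was the scarcest core, at 12.7, 13.3 and 12.0 in the controls and 8.96, 9.15 and 7.88 in the agrin siRNA libraries. Its groups did not overlap, and the log2 fold change was -0.53 ± 0.07 (SE, limma, adjusted p = 0.000960) on 347 to 525 reads.

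The remaining cores did not pass, and 3 of these 4 had values below 0. SDC3 stood at 256 in each control, with an SD of only 0.197, and at 243, 218 and 252 in the agrin siRNA libraries, so the groups did not overlap but the agrin siRNA libraries were spread (-0.11, limma adjusted p = 0.151). SDC4, the most abundant core among the members per kilobase and a syndecan of focal adhesions, was at 184 ± 10.4 and 169 ± 5.64 (SD, n = 3; -0.12, adjusted p = 0.101), and passed without control replicate 3 (-0.16, adjusted p = 0.0457). GPC1 was at 290 ± 18.1 and 262 ± 14.1 (-0.14, adjusted p = 0.0816), and passed without agrin siRNA replicate 2 (-0.18, adjusted p = 0.0196) and in plain CPM (-0.16, adjusted p = 0.0488). SDC1 was at 0.07 (95% interval -0.03 to 0.18).

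**Figure D3:**
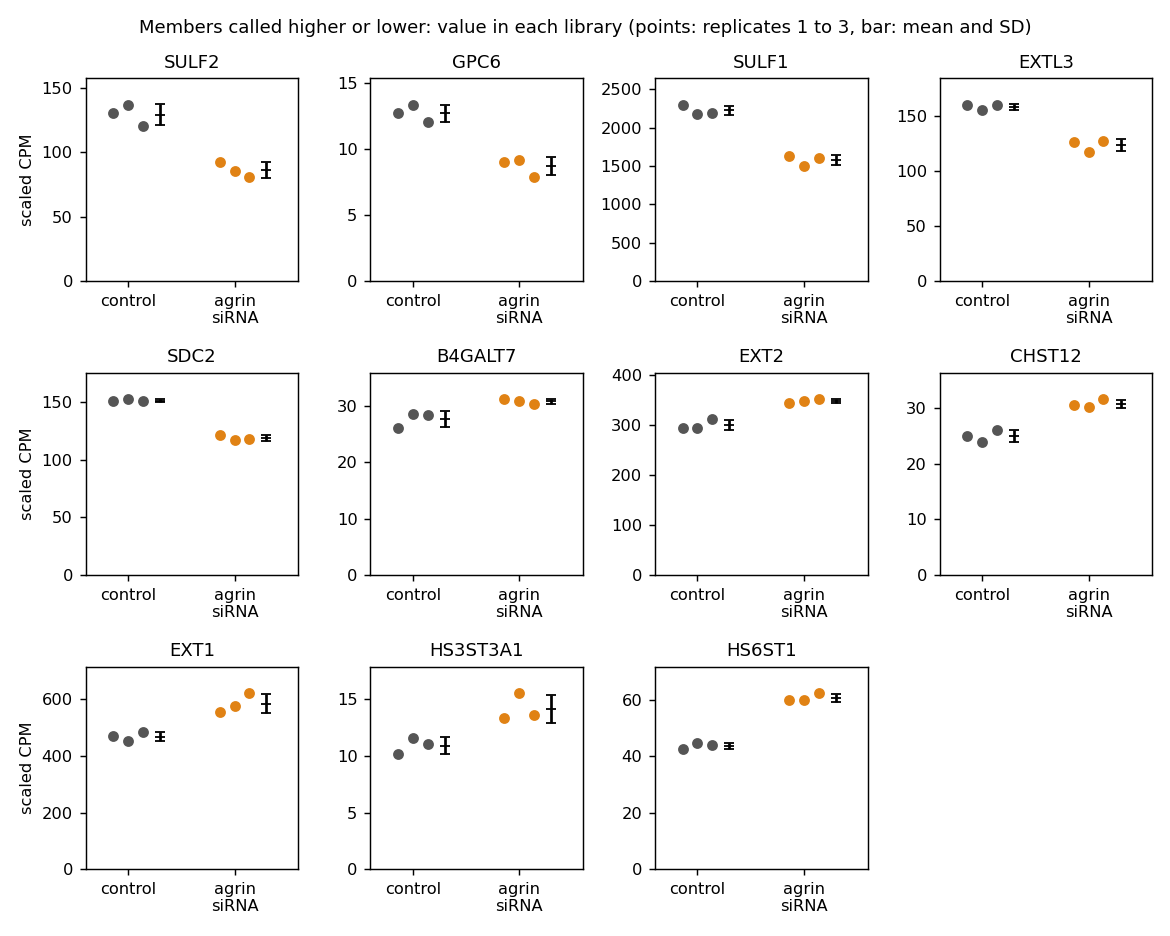
Scaled CPM of the 11 members called higher or lower, 1 panel per gene, with a point for each of the 3 control and 3 agrin siRNA libraries and the mean and SD beside them; each axis starts at 0. In all 11 panels the groups do not overlap, with SULF1 between 1499 and 1633 in agrin siRNA and between 2184 and 2299 in control libraries.

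With agrin counted in, 9 heparan sulfate cores can be set side by side per kilobase of exon: AGRN, perlecan (HSPG2), collagen XVIII (COL18A1), the 4 syndecans, GPC1 and GPC6. Their summed level was 371, 384 and 366 scaled CPM per kilobase in the controls and 321, 321 and 310 in the agrin siRNA libraries, with no overlap. AGRN made up 19.4% ± 0.725 of the sum in the controls and 8.31% ± 0.332 in the agrin siRNA libraries (SD, n = 3). Without AGRN, the sum of the other 8 was 301 ± 8.70 and 291 ± 4.78, and the groups overlapped. The summed syndecans went from 178 ± 3.6 to 165 ± 0.543, and the 2 glypicans from 46.5 ± 2.87 to 41.6 ± 2.27, neither with overlap. Among all single genes tested, 45.2% did not overlap. The glypican gap was small, with the lowest control at 43.9 and the highest agrin siRNA library at 43.6. GPC1, which makes up most of that sum, overlapped between the groups and was not called. COL18A1 rose from 385 ± 14.1 to 445 ± 28.1 scaled CPM (log2 fold change 0.21, limma adjusted p = 0.0162), a call lost without control replicate 1 (adjusted p = 0.0792) or control replicate 3 (0.0669). HSPG2 was at 572 ± 25.6 and 589 ± 36.7 (0.04, 95% interval -0.08 to 0.16). These sums choose no isoform, and the sum of transcripts is not the number of chains.

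**Figure D4:**
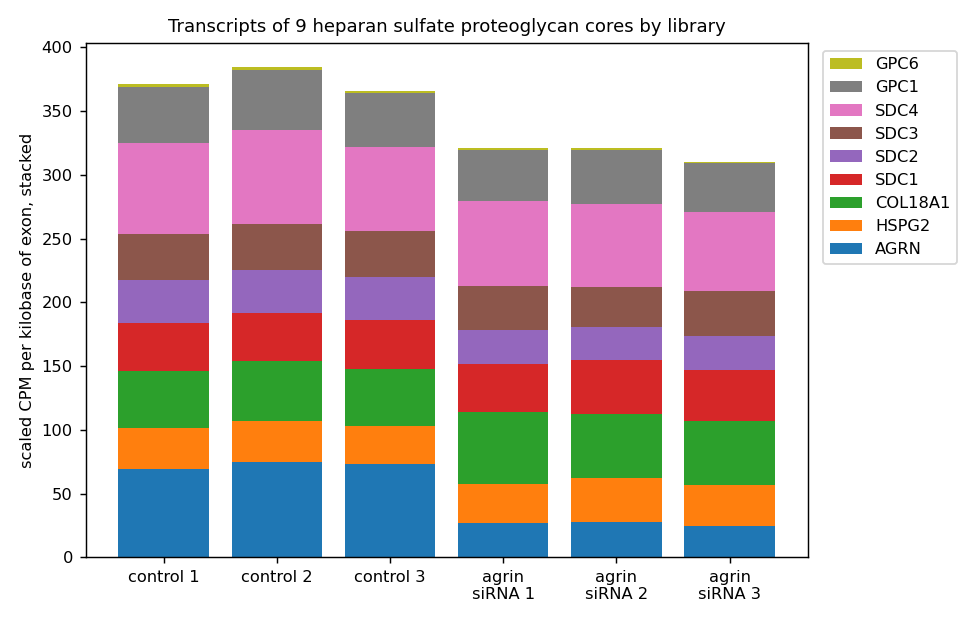
Level of 9 heparan sulfate proteoglycan cores in each library, in scaled CPM per kilobase of exon and stacked, for control replicates 1 to 3 and agrin siRNA replicates 1 to 3. The total is 366 to 384 in controls and 310 to 321 in agrin siRNA libraries, with AGRN at the base of each bar as the part that shrinks most.

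A further 81 genes of the pathway, besides AGRN, had been listed, 62 of them rows of the table and 59 tested. Of these, 18 were higher and 5 lower, 39.0% beside the 28.7% of all genes, and the median log2 fold change was 0.05. Without single libraries the count of higher genes ran from 10 to 20, being 10 without each control replicate in turn or agrin siRNA replicate 3, and that of lower genes from 3 to 10. Lower genes numbered 10 when agrin siRNA replicate 2 was left out, and 3 when its replicate 3 or control replicate 1 or 3 was. Calls over all genes moved as well. Their share was 15.7 to 19.9% without a control replicate and 18.0% without agrin siRNA replicate 3. It was 38.9% without agrin siRNA replicate 2. The 3 other chondroitin and dermatan sulfate enzymes tested all passed. CHST7, another 6-O-sulfotransferase of chondroitin, went from 7.23 ± 0.808 to 10.9 ± 0.284 scaled CPM (SD, n = 3; 0.57, limma adjusted p = 0.00122). DSEL, an epimerase related to DSE, went from 271 ± 3.94 to 326 ± 22.8 (0.26, adjusted p = 0.00466). CHST15, which adds a further sulfate to the 4-sulfated sugar, was at 0.26 (adjusted p = 0.0435) with overlapping groups, and the call needed 4 of the 6 libraries: dropping control replicate 2 gave an adjusted p of 0.154, control replicate 3 0.131, agrin siRNA replicate 1 0.0749 and replicate 3 0.159. It was also lost in plain CPM (0.0551), with no filter (0.0560) and without the variance trend (0.0570). Of the other enzymes of the linker and of heparan sulfate, FAM20B and PXYLP1, a kinase and a phosphatase of the linker xylose, were tested and 0 passed.

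A further list of 13 tested genes held other cores and chain carriers, and TNFRSF11B, which binds chains rather than being a core. Of the 13, 5 rose and 1 fell, 46.2% beside 28.7% of all genes. The fall was that of ACAN, the aggrecan core of cartilage. ACAN stood at 18.8, 17.6 and 15.0 scaled CPM in the controls and at 2.22, 0.861 and 0.954 in the agrin siRNA libraries (-3.33 ± 0.23, SE, limma, adjusted p = 1.83e-05), the widest gap among the genes of the pathway. CSPG4, a membrane chondroitin sulfate proteoglycan, stood at 191, 203 and 189 in the controls and at 263, 295 and 284 in the agrin siRNA libraries (0.53 ± 0.05, SE, limma, adjusted p = 0.000124). VCAN, versican, stood at 22.2, 20.7 and 21.4 and at 24.0, 39.3 and 29.1, so agrin siRNA replicate 2 was well above the others; its log2 fold change was 0.49 (adjusted p = 0.0292), and the call did not hold when control replicate 1 (adjusted p = 0.0727), 2 (0.0925) or 3 (0.0876) or agrin siRNA replicate 3 (0.0692) was dropped, with DESeq2 (0.0558) or without the variance trend (0.0590). TNFRSF11B, osteoprotegerin, a secreted decoy receptor that binds heparan sulfate, rose (0.56, adjusted p = 0.00407). The small dermatan or chondroitin sulfate carriers did not pass: DCN, decorin, was at -0.07 (95% interval -0.21 to 0.08) and BGN, biglycan, at -0.25 (adjusted p = 0.0539). BGN passed in 6 of the 18 alternatives, among them without agrin siRNA replicate 1 (-0.33, adjusted p = 0.00641) or replicate 2 (-0.14, adjusted p = 0.0385), with quantile normalization (0.0371), in plain CPM (0.0407) and with DESeq2 (0.0163).

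Supply of sugars and sulfate was covered by 23 tested genes, of which 5 rose and 3 fell, 34.8% beside 28.7% of all genes. SLC26A2, the sulfate transporter of the plasma membrane, stood at 37.7, 37.6 and 37.3 scaled CPM in the controls and at 24.5, 26.8 and 25.7 in the agrin siRNA libraries. The groups were far apart relative to their spread, with a log2 fold change of -0.54 ± 0.05 (SE, limma, adjusted p = 8.29e-05). PAPSS1 and PAPSS2, which make the sulfate donor PAPS, were among the 15 that did not pass. SLC35D2, a nucleotide sugar transporter that shares 46.8% of its exon bases with an overlapping unit on its strand, was at 0.31 (limma adjusted p = 0.00204), and UAP1, which makes UDP-N-acetylglucosamine, at 0.22 (adjusted p = 0.00399).

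Lysosomal breakdown of the chains was covered by 18 tested genes, of which 5 rose and 1 fell, 33.3% beside 28.7% of all genes. HYAL2, a hyaluronidase at the cell surface, rose (0.27, limma adjusted p = 0.00227). HYAL3, a related gene, was at 0.24 (adjusted p = 0.0185), a call that did not hold when control replicate 1 (adjusted p = 0.0783) or 2 (0.0643) or agrin siRNA replicate 3 (0.0704) was dropped. GUSB, the glucuronidase, was at 0.19 (adjusted p = 0.0286), and its call held only without agrin siRNA replicate 2 among the 6 fits that leave out 1 library, with an adjusted p of up to 0.104; without the variance trend it was lost too (0.0570).

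**Figure D5:**
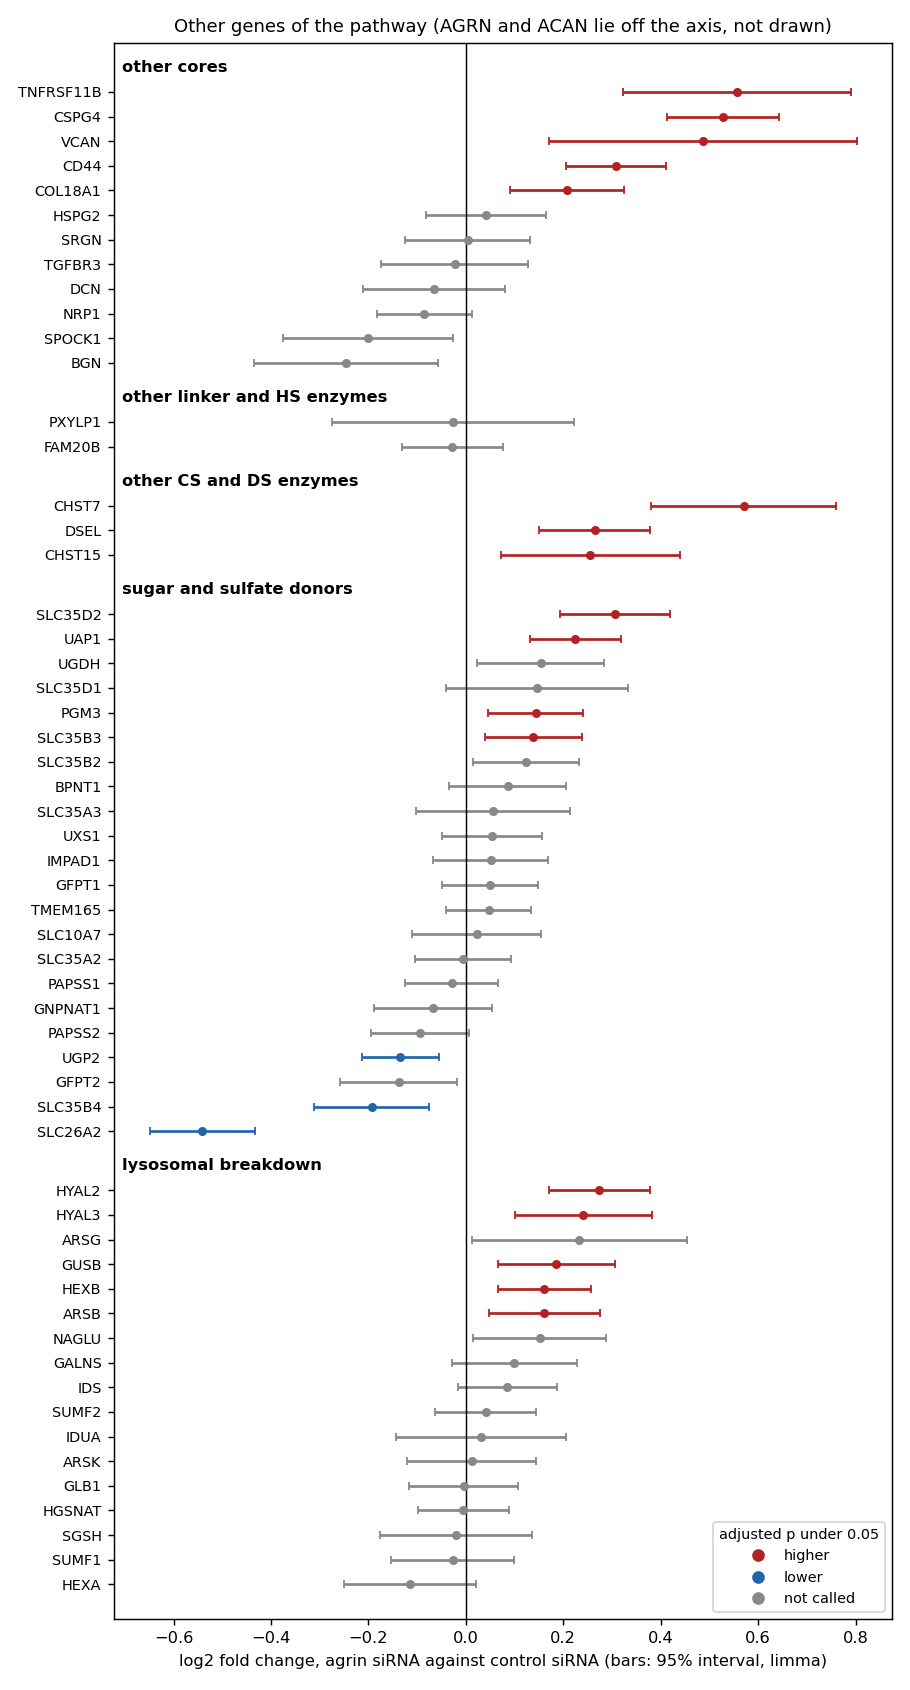
Log2 fold change of further genes of the pathway, agrin siRNA against control siRNA, by group; points are limma estimates, bars their 95% intervals, and colour the call at an adjusted p under 0.05. SLC26A2 at -0.54 stands apart from the other genes of supply drawn; AGRN and ACAN lie beyond the axis and are not drawn.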

How the data were processed

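The authors deposited 1 table with a normalized expression signal for 14168 genes in 6 libraries, named as CPM; per the labels, the kits were Zymo Quick-RNA and TruSeq Stranded mRNA. The submitters' processing notes list build hg38 and the tools STAR (2.6.1d), edgeR, HTSeq and SAMtools; the sources used here do not give the annotation, strand setting or scaling factors. Each value was a whole multiple of 1 step per column (100% of values within 0.01 of a read), which gave the reads; columns sum to 1073188 to 1096534, so they were not scaled to the listed genes alone. The design had assumed CPM and kept its test.

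Genes with at least 1 scaled CPM in at least 3 libraries (13206) were compared by limma (3.58.1, R 4.3.3, two-sided) after log2(value + 0.5), with a variance trend and without covariates; p-values were Benjamini-Hochberg adjusted over all of them. Fold changes on that scale understate low genes. Simulated reads covered the 13206 genes, with 200 changed between these groups. On them the test recovered 62% of genes changed 1.2-fold and 96% of those changed 1.5-fold, with 10 false calls among 189. The simulation drew genes independently, with the same spread in both groups and fewer changed genes than were called here. Its rates therefore need not hold for the data. Replicates of a group differed by more than sampling noise, in chi-square units per degree of freedom. These were 4.53 to 6.01 between controls and 10.6 to 25.6 between agrin siRNA libraries.

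Exon lengths and coordinates are from GENCODE 29 (GRCh38), promoters from RefSeq (GRCh38.p14). Members, lists and tests were chosen with earlier results of these data known; TNFRSF11B binds chains rather than being a core. Every member was named, as were up to 4 called genes per further list with the largest change, and COL18A1, HSPG2, VCAN, DCN and BGN; some genes this took are not reported here. FAM20B, PXYLP1, PAPSS1, PAPSS2, the sums and ratios, and all genes of the closing observations were chosen after their values were seen. Alternatives were other scalings, pseudocounts, filters and variance models, edgeR 4.0.16 (with the deposited scaling) and DESeq2 1.42.0 on the reads, a replicate block, and leaving out each library.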

Additional observations from a re-analysis of the deposited data

How the results depend on the processing

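Over 18 alternatives, 590 of 628 values of the 35 members kept direction and call. EXT1, EXT2, EXTL3, HS6ST1, HS3ST3A1, SULF1, SULF2, CHST12, SDC2 and GPC6 were called in the same direction in all 18. B4GALT7 was called in 5 of 18, and was not with median-of-ratios scaling (adjusted p = 0.0556), quantile normalization (0.0555), plain CPM (0.0829), a pseudocount of 1 (0.0501), no filter (0.0575), no variance trend (0.0631), with DESeq2 (0.0989) or with the replicate block (0.0714), nor without 5 of the 6 libraries in turn. Members called higher and lower numbered 6 and 5 by edgeR and 5 and 5 by DESeq2. Leaving out single libraries gave 5 to 11 higher and 5 to 8 lower members, the highest of both without agrin siRNA replicate 2, and 1124 to 2551 higher and 947 to 2588 lower among all genes, lowest without control replicate 1 and highest without agrin siRNA replicate 2. For the further pathway genes these counts ran from 10 to 20 and from 3 to 10. Sign changes occurred only in genes not called in either fit: CHST3 was -0.0091 in plain CPM, and leaving out libraries gave -0.061 to 0.022 for NDST1, -0.037 to 0.013 for HS2ST1, -0.043 to 0.013 for HS3ST3B1, -0.025 to 0.13 for HPSE, -0.023 to 0.044 for CHST3, -0.0092 to 0.076 for HSPG2 and -0.12 to 0.0026 for DCN. Same-numbered replicates were not shown to pair, nor shown not to. Their correlations of deviations were -0.04, 0.17 and 0.20, beside -0.33 to 0.15 between replicates of unlike number. With the replicate number as a block, 8 members were higher and 6 lower, and 1905 and 1775 of all genes. CHPF2 (limma adjusted p = 0.0405), CHST11 (0.0124), CHST14 (0.0243), GPC1 (0.0312) and BGN (0.0147) then gained a call and B4GALT7 lost it. No scaling moved the median of all genes by more than 0.02 in log2. HPSE and CHST11 had no value under the filter at a mean of at least 5. Depth limits HPSE, CHST11, GPC6 and HS3ST3A1 most, with as few as 131 reads in a library for CHST11.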

Other observations

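Some overlapping genes had rows that moved together across libraries. NDST2 stood at 30.8, 29.8 and 31.6 scaled CPM in the controls, and AC022400.6, which shares 82.9% of its exon bases, at 31.3, 30.4 and 32.1. MIR671, a microRNA gene inside an exon of CHPF2, stood at 8.18, 7.79 and 8.41 in the controls and at 9.95, 8.73 and 9.13 in the agrin siRNA libraries, and CHPF2 at 181, 174 and 184 and at 201, 184 and 209. In each of these pairs the lowest control was replicate 2, and so was the lowest agrin siRNA library. The highest agrin siRNA library was replicate 1 for MIR671 but replicate 3 for CHPF2. Not all overlapping genes moved together: SMARCD3, which also overlaps CHPF2, fell (-0.32, limma adjusted p = 0.00249).

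The controls were closer to each other than the agrin siRNA libraries were. Over the 35 members, the root mean square deviation from the group mean was 0.05, 0.06 and 0.05 in log2 for control replicates 1, 2 and 3 and 0.07, 0.08 and 0.08 for the agrin siRNA replicates. Over all genes tested the same measure was 0.06, 0.07 and 0.07 and then 0.10, 0.11 and 0.07. Agrin siRNA replicate 2 had 7 members more than 0.1 from its group mean, and replicates 1 and 3 had 4 each. Leaving it out added XYLT2, B3GALT6, CHPF2, CHST11 and CHST14 to the higher members and EXTL2, CHSY1 and GPC1 to the lower ones.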
